A study of Equus caballus with 22 samples.

Results

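CD74, B2M, ITGAX, LAPTM5 and CD68, 5 genes of antigen presentation and of macrophages, were followed in the uterine lining (endometrium) of pregnant and non-pregnant mares. Every non-control probe that carried a horse RefSeq transcript of these genes was taken, which gave 12 of 43603 probes and 5 of 675 genes with a symbol. CD74, LAPTM5 and CD68 had 1 probe each, B2M had 2 and ITGAX had 7, and all 12 passed the filter, which asked for 5 or more of the 22 arrays with a signal well above background. The groups were pregnant warmblood mares at day 12 (6 samples), the same mares without pregnancy at the matching stage (6), pregnant warmblood mares at day 8 (5) and the same mares without pregnancy (5), called control below. All were endometrial biopsies on 1-colour Agilent arrays, and the pregnant mares were sampled after embryo recovery. A biopsy mixes epithelium, stroma, vessels and immune cells, so fewer cells of a type and less RNA per cell cannot be told apart. Whether a mare number at day 8 is the same animal as at day 12 is not given in the labels.

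Antigen-presenting cells display peptides on MHC molecules. Class I molecules, found on most nucleated cells, are held at the surface by a small shared light chain, the product of B2M. Class II molecules belong mainly to macrophages, dendritic cells and B cells, and CD74 encodes the invariant chain that guides them through the cell and keeps their groove closed. ITGAX encodes integrin alpha X, known as CD11c, a surface receptor of dendritic cells and some macrophages. LAPTM5 encodes a lysosomal membrane protein of blood-derived cells, and CD68 a lysosomal glycoprotein in wide use as a macrophage marker. Around these days the equine conceptus still moves through the uterus and has not attached, while the maternal endometrium has to tolerate it.

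The 75th percentile of the processed intensity ranged from 577 to 1863 units per array, 74.2% to 92.9% of spots were well above background, and no spot was saturated. The number of arrays limits the precision. Both arrays of a mare shared a slide, and the 4 slides of day 12 held no day 8 sample, so day cannot be told apart from slide, scan day and scanner software. The epithelial markers ESRP1 and P19 and the stromal markers DCN, LUM and SPARC, all 5 measured of the 30 on these lists, were well above background on all 22 arrays. Of the 6 measured macrophage and dendritic cell markers out of 37, 5 were so on all 22 and ITGAX on 21, and none of the 14 B and plasma cell markers had a named probe. Mare 3 at day 12 stood apart among the mares of that day. Over 31038 probes her change with pregnancy correlated at -0.154 with the mean change of the other mares. Each other day 12 mare had an r of 0.103 to 0.597. At day 8 this r was -0.135 for mare 4, -0.0278 for mare 1 and 0.127 to 0.265 for the others. The day 12 arrays of mare 2 (pregnant and control) and of mare 5 (control), which shared a scan day, had the 3 largest shares of spots well above background, 88.3% to 92.9%. On 130 probes, a pattern chosen after the values were seen and without a member probe, all 3 lay over 1.5 log2 units above every one of the other 19 arrays. Pregnancy effects at day 12 are therefore also given without mares 2, 3 and 5. The pair of mare 2 at day 8 went apart for EQMHCC1, a class I heavy chain gene. This gene stood at -5.33 and -5.35 in the pregnant and control samples of mare 3 at day 12 and at -5.81 in the day 8 control sample of mare 2, but at 1.49 in her pregnant sample of that day and between 0.73 and 3.06 on all other arrays. The labels give both day 8 samples as 1 mare, so the pair was kept and day 8 effects are also given without mare 2. Her pregnant sample correlated best with her own control sample over 31038 probes. Both arrays shared slide 7 with those of mare 1, and the part of the slide in this match was not tested.

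Levels are log2 processed intensities minus the log2 of the 75th percentile of the array, so 0 is the level of that percentile. Each gene stands by its brightest probe, and levels of different genes are not set against each other.

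CD74, the class II invariant chain, was well above background on all 22 arrays, with processed intensities of 1022 to 6326 units. Its level in pregnant samples of day 12 had a lowest value of 0.88, a median of 1.06 and a highest of 1.54, against 0.53, 0.80 and 1.77 in control samples of that day. At day 8 it was 0.72, 0.65, 0.31, 0.58 and 0.82 in pregnant samples of mares 1, 2, 4, 5 and 6, against 0.89, 1.05, 1.31, 0.43 and 1.06 in their control samples. The pregnant and control groups overlapped on both days. The highest of all 22 values was the control sample of mare 3 at day 12, and the lowest the pregnant sample of mare 4 at day 8.

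Within mares, CD74 was higher in pregnancy in 5 of 6 mares at day 12 and in 1 of 5 at day 8. The changes at day 12 were 0.69, 0.38, -0.89, 0.46, 0.58 and 0.28 log2 in mares 1 to 6. At day 8 they were -0.16, -0.40, -1.0, 0.15 and -0.24 in mares 1, 2, 4, 5 and 6. The 5 positive changes of day 12 lay between 0.28 and 0.69, and the negative change of mare 3 was larger in size than any of them. Mare 5, with the 1 positive change of day 8, also had the highest day 8 change of the other 4 genes.

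The mean change of CD74 at day 12 was 0.25 ± 0.19 log2 (SE, 6 mares, 1.19-fold, 95% interval 0.886 to 1.60), with an adjusted p of 0.641 by limma over all probes. At day 8 it was -0.33 ± 0.21 (5 mares, 0.795-fold, interval 0.575 to 1.1, adjusted p = 0.866). The change at day 12 exceeded that at day 8 by 0.58 ± 0.29, with an interval of -0.05 to 1.22, and this difference had an adjusted p of 0.502. None of the 3 passed the threshold of an adjusted p under 0.05, and the opposite signs of the 2 days are thus not shown to differ. The day 12 change was 0.48 ± 0.14 without mare 3 (adjusted p = 0.0963), 0.23 without mare 2 (adjusted p = 0.860) and 0.19 without mare 5 (adjusted p = 0.732). The day 8 change was -0.31 without mare 2, and -0.45 to -0.16 with each mare left out in turn. With normexp background correction the day 12 change was 0.07 and the difference of the effects 0.41, or 0.04 relative to the median of all probes. By slide, the mean change of CD74 at day 12 was 0.38 on slide 1 (mare 2), 0.58 on slide 2 (mare 5), -0.10 on slide 3 (mares 1 and 3) and 0.37 on slide 4 (mares 4 and 6). At day 8 it was -1.0 on slide 5 (mare 4), -0.04 on slide 6 (mares 5 and 6) and -0.28 on slide 7 (mares 1 and 2).

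**Figure D1:**
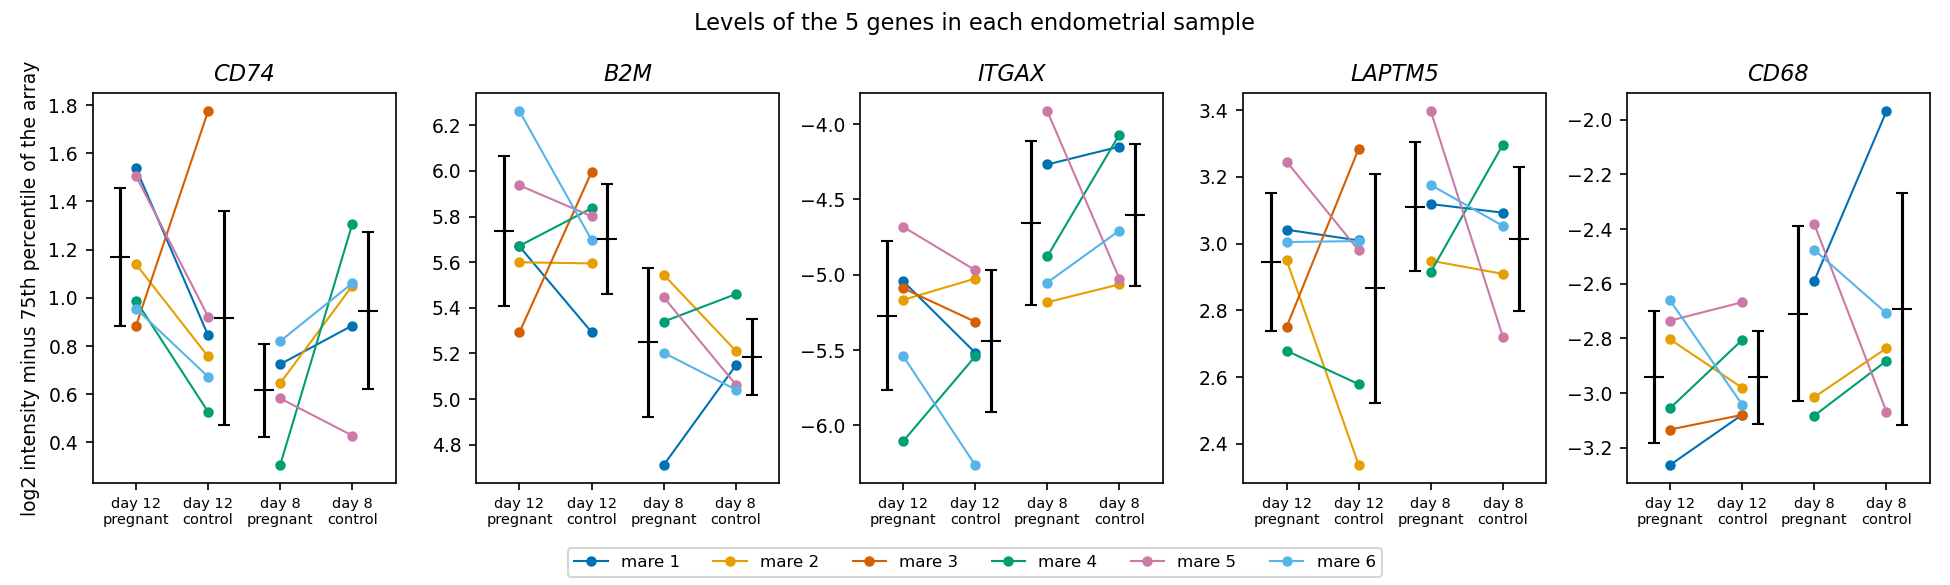
Levels of the 5 genes in each of the 22 samples (y axis: log2 processed intensity minus the 75th percentile of the array, a separate scale for each gene; x axis: day 12 pregnant and control, day 8 pregnant and control). Points are samples, coloured lines join both samples of a mare, and bars give the group mean ± SD; the CD74 panel shows the control level of mare 3 at day 12, 1.77, above all other points, and her line running the other way from those of the other 5 mares.

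Between days, CD74 passed the threshold in pregnant samples, and no other member did in pregnant or control samples. It averaged 1.17 ± 0.29 in pregnant samples of day 12 (SD, n = 6) and 0.62 ± 0.19 in pregnant samples of day 8 (n = 5), and the 2 groups did not overlap. The difference was 0.55 ± 0.16 log2 (SE, 1.47-fold, 95% interval 1.14 to 1.88, limma adjusted p = 0.0312). This was 1 of 12 member probes, against 24.3% of all 38454 probes tested in this comparison, 11.1% of them higher at day 12, and groups did not overlap for 13.6% of those probes. A call was thus common in this comparison, in which the median size of a difference over all probes was 0.40. In control samples it averaged 0.92 ± 0.44 at day 12 and 0.95 ± 0.33 at day 8, a difference of -0.03 ± 0.24 (adjusted p = 0.952), where 7.1% of all probes passed and no member probe did. The call in pregnant samples was lost with slide as a random block (0.58, adjusted p = 0.0530), with another background correction (0.35, adjusted p = 0.489), in the authors' value table (0.69, adjusted p = 0.534) and without mare 1, 2, 4 or 5 (0.48 to 0.57, adjusted p = 0.0626 to 0.110). Without mare 3 it was 0.61 (adjusted p = 0.0324). The value table was used without further scaling and its array medians ran from 7.47 to 8.83. Array brightness thus enters its comparison of days.

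B2M, the class I light chain, gave 16569 to 117955 units on the brighter of its 2 probes. Its level in pregnant samples of day 12 had a lowest value of 5.29, a median of 5.67 and a highest of 6.26, against 5.29, 5.75 and 6.00 in control samples. On day 8 it stood at 4.71, 5.54, 5.34, 5.45 and 5.20 in pregnant samples of mares 1, 2, 4, 5 and 6, against 5.15, 5.21, 5.46, 5.06 and 5.04 in their control samples. Pregnant and control samples overlapped on both days. The changes within mares went both ways, at day 12 from -0.70 in mare 3 to 0.56 in mare 6 and at day 8 from -0.44 in mare 1 to 0.38 in mare 5.

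The mean change of B2M was 0.04 ± 0.16 at day 12 (interval of the fold 0.809 to 1.30, adjusted p = 0.948) and 0.06 ± 0.17 at day 8 (0.807 to 1.36, adjusted p = 0.983). The difference between the days was -0.03 ± 0.23 (adjusted p = 0.978). Rises above 1.30-fold at day 12 thus lay outside the interval, and smaller ones did not. The day 12 change was 0.18 without mare 3 (adjusted p = 0.514), 0.04 without mare 2 and 0.02 without mare 5, and the day 8 change was -0.0031 without mare 2.

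By day, the brighter B2M probe was higher at day 12 than at day 8 by 0.49 ± 0.20 in pregnant samples (adjusted p = 0.0929) and by 0.52 ± 0.15 in control samples (adjusted p = 0.0636). The second probe differed by 0.07 ± 0.19 (adjusted p = 0.811) and 0.11 ± 0.16 (adjusted p = 0.688). The 2 probes varied together among samples of a group (r = 0.907 over 22 arrays with group means removed). Their ratio within an array nevertheless took separate values on each day. The log2 ratio of the brighter to the dimmer probe was 1.68 ± 0.18 in pregnant and 1.69 ± 0.13 in control samples of day 12 (SD, n = 6 each), and 1.27 ± 0.017 in pregnant and 1.28 ± 0.016 in control samples of day 8 (n = 5 each). Its day 12 range of 1.48 to 1.92 lay wholly above the day 8 range of 1.24 to 1.30. Within day 12 the ratio ran by slide from 1.52 on slide 2 to 1.87 on slide 4. A difference of B2M with day was therefore not shared by both probes, and the part of slide and software in it was not tested.

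**Figure D2:**
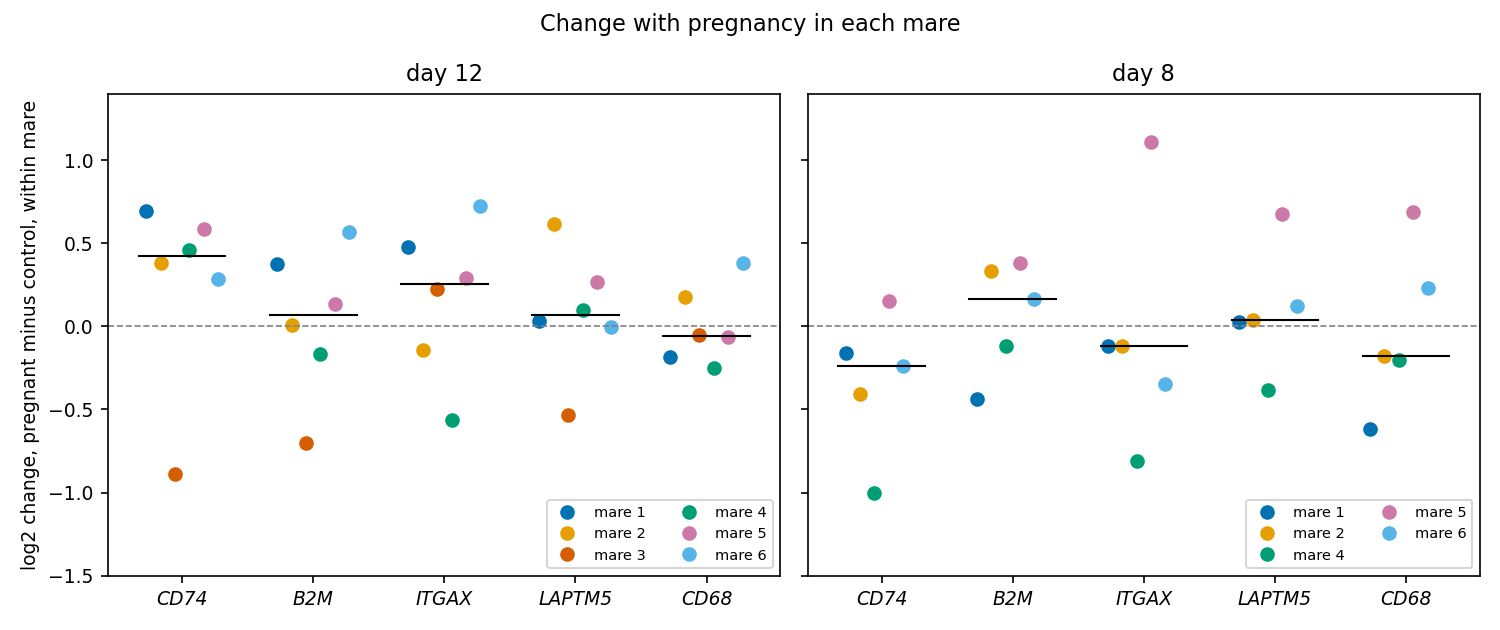
Change with pregnancy of each gene in each mare (y axis: log2 pregnant minus control; left panel day 12, 6 mares; right panel day 8, 5 mares). Points are mares in the same colours in both panels and short lines are medians; mare 3 is the lowest point for CD74, B2M and LAPTM5 at day 12, and mare 5 the highest for all 5 genes at day 8.

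ITGAX, the dendritic cell integrin, was dim. Its brightest probe gave 8.52 to 85.4 units and was well above background on all 6 pregnant and 5 of 6 control arrays of day 12, and on all 10 arrays of day 8. Its level in the pregnant samples at day 12 had a lowest value of -6.11, a median of -5.13 and a highest of -4.68, against -6.26, -5.41 and -4.97 in control samples. On day 8 it stood at -4.27, -5.18, -4.88, -3.91 and -5.05 in pregnant samples of mares 1, 2, 4, 5 and 6, against -4.15, -5.06, -4.07, -5.03 and -4.71 in their control samples. The groups overlapped on each day.

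The change of ITGAX within mares ranged from -0.56 to 0.72 at day 12 and from -0.81 to 1.11 at day 8. Its mean was 0.17 ± 0.22 at day 12 (SE, adjusted p = 0.797) and -0.06 ± 0.24 at day 8 (adjusted p = 0.990). The other 6 probes gave -0.0045 to 0.64 at day 12 and -0.43 to 0.21 at day 8, none past the threshold. The 0.64 is that of A_69_P001057, well above background on 17 arrays, where mare 2 changed by 2.63 and the other mares by -0.53 to 1.41. The 0.21 is that of A_69_P018398, where mare 5 changed by 2.67 and the median was -0.37. Fold intervals of the brightest probe reached from 0.806 to 1.57 at day 12 and from 0.669 to 1.38 at day 8, and changes within these bounds are not excluded. The day 12 change was 0.16 without mare 3, 0.23 without mare 2 and 0.14 without mare 5, and the day 8 change was -0.04 without mare 2.

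The 7 ITGAX probes fell into 2 sets between days. The brightest probe and A_69_P001057 were lower at day 12 than at day 8, at -0.61 and -0.32 in pregnant samples and at -0.83 and -0.87 in control samples. The other 5 were higher at day 12, by 0.43 to 0.83 in pregnant samples and by 0.26 to 0.64 in control samples. None of these 14 differences passed the threshold, the brightest probe having adjusted p values of 0.142 in pregnant and 0.0818 in control samples. The log2 ratio of the 2 probes to the 5 within an array was 0.04 ± 0.64 in pregnant and -0.32 ± 0.48 in control samples of day 12, and 1.13 ± 0.41 in pregnant and 1.03 ± 0.35 in control samples of day 8 (SD). Averaged over all 7 probes, ITGAX was 0.32 higher at day 12 in pregnant and 0.11 higher in control samples, so no direction by day is given for the gene. Among samples of a group all 21 pairs of its probes correlated positively, at 0.390 to 0.915.

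**Figure D3:**
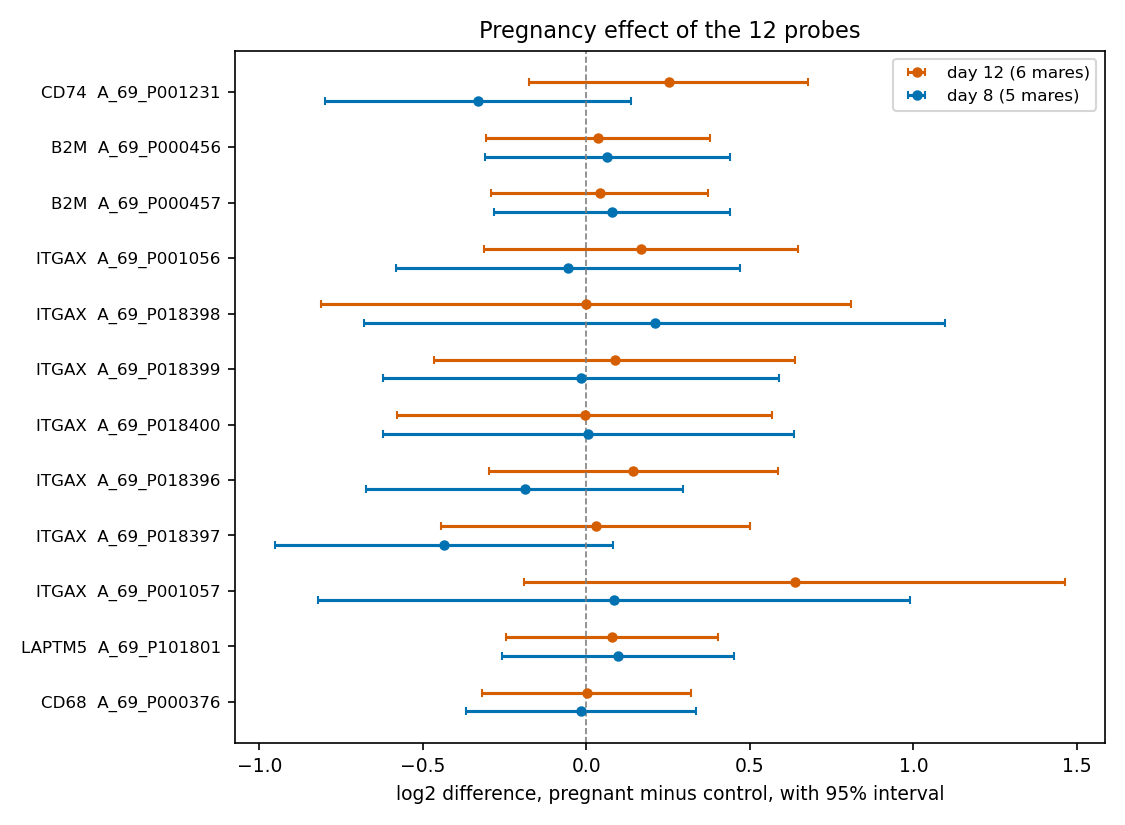
Pregnancy effect of each of the 12 probes (x axis: log2 difference, pregnant minus control, with 95% interval; orange day 12, 6 mares; blue day 8, 5 mares). All 24 intervals include 0, and CD74 has point estimates of 0.25 at day 12 and -0.33 at day 8.

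LAPTM5, the lysosomal membrane protein of blood-derived cells, had intensities of 4075 to 18020 units. Pregnant samples of day 12 had a lowest level of 2.68, a median of 2.98 and a highest of 3.25, against 2.34, 2.99 and 3.28 in control samples. On day 8 levels were 3.12, 2.95, 2.91, 3.40 and 3.18 in pregnant samples of mares 1, 2, 4, 5 and 6, against 3.09, 2.91, 3.30, 2.72 and 3.05 in their control samples. All 4 groups overlapped.

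The LAPTM5 changes at day 12 were 0.03, 0.62, -0.54, 0.10, 0.27 and -0.0030 in mares 1 to 6, and at day 8 they were 0.03, 0.04, -0.38, 0.68 and 0.12 in mares 1, 2, 4, 5 and 6. The mean change was 0.08 ± 0.15 at day 12 (fold interval 0.844 to 1.32, adjusted p = 0.864) and 0.10 ± 0.16 at day 8 (0.836 to 1.37, adjusted p = 0.965). Without mare 3 it was 0.20 at day 12 (adjusted p = 0.473), and without mare 2 it was -0.03 (adjusted p = 0.979). It was 0.04 without mare 5, and the day 8 change was 0.11 without mare 2. Between days LAPTM5 differed by -0.17 ± 0.14 in pregnant samples (adjusted p = 0.422) and by -0.15 ± 0.19 in control samples (adjusted p = 0.654).

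CD68, the macrophage glycoprotein, gave 76.6 to 242 units and was well above background on every array. Pregnant samples of day 12 had a lowest level of -3.26, a median of -2.93 and a highest of -2.66, against -3.08, -3.01 and -2.67 in control samples. On day 8 levels were -2.59, -3.01, -3.08, -2.38 and -2.48 in pregnant samples of mares 1, 2, 4, 5 and 6, against -1.97, -2.84, -2.88, -3.07 and -2.71 in their control samples. The group means of day 12 were equal to 2 decimals. The change was 0.00 ± 0.15 at day 12 (fold interval 0.801 to 1.25, adjusted p = 0.999) and -0.02 ± 0.16 at day 8 (0.775 to 1.26, adjusted p = 0.994). Without mare 3 or mare 5 the day 12 change was 0.01, and without mare 2 it was -0.03 at day 12 and 0.02 at day 8. Day 12 samples lay below day 8 samples by 0.23 ± 0.18 in pregnant (adjusted p = 0.355) and by 0.25 ± 0.20 in control samples (adjusted p = 0.446). Against the log2 75th percentile of the array, its brightness, r over the 22 arrays was -0.491 for CD68, 0.392 for CD74 and 0.480 for the second B2M probe, and between -0.175 and 0.210 for the other 9 probes. The part of brightness in the differences between days was not tested.

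None of the 12 member probes passed at day 12, where 0.265% of 38456 probes did, and none at day 8, where 0% of 38452 did (2243 of them, 5.83%, had an unadjusted p under 0.05). None passed for the difference between the 2 pregnancy effects, which 0.0104% of probes did. No member probe had an unadjusted p under 0.05 in these 3 comparisons. No member had groups free of overlap between pregnant and control samples, as 0.325% of probes had at day 12 and 0.237% at day 8. Ordered by level, neighbouring groups differed by more than the larger of their SDs in 2 places: B2M between control samples of day 12 and pregnant samples of day 8 (0.45), and ITGAX between pregnant samples of day 8 and of day 12 (0.61). Both gaps are those of the brightest probe. The second B2M probe had means of 4.01 and 3.98 in these groups, and 5 of the 7 ITGAX probes went the other way.

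**Figure D4:**
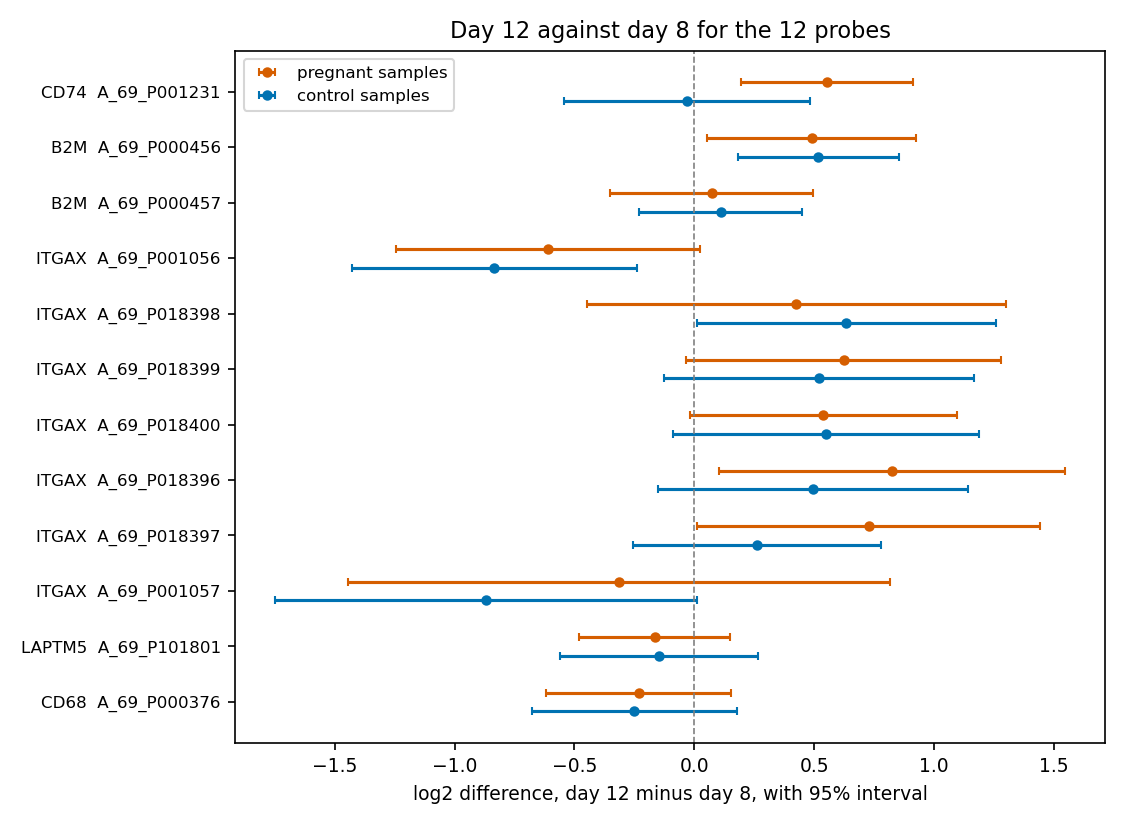
Difference between days of each of the 12 probes (x axis: log2 difference, day 12 minus day 8, with 95% interval; orange pregnant samples, blue control samples). Intervals are not adjusted for the number of probes; CD74 lies at 0.55 in pregnant and -0.03 in control samples, the 2 B2M probes lie apart, and 2 ITGAX probes lie left of 0 and 5 right of it.

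Co-variation of the changes within mares was computed for the 10 pairs of genes. At day 12 (n = 6 mares) CD74 and B2M had the highest Pearson r, 0.774 (exact permutation p = 0.0931, adjusted p = 0.633; Spearman rho = 0.371, exact p = 0.497, adjusted p = 0.806). Without the 2 mares farthest from the median of CD74 it was -0.561, and without mare 3 it was -0.08, so the relation rests on mare 3. CD74 and LAPTM5 followed with r = 0.749 (exact permutation p = 0.147, adjusted p = 0.633; rho = 0.486, exact p = 0.356, adjusted p = 0.806). Here r was 0.173 without the 2 farthest mares and -0.17 without mare 3. B2M and ITGAX had the highest rho, 0.829 (exact permutation p = 0.0583, adjusted p = 0.583), with r = 0.516 (exact p = 0.296, adjusted p = 0.633). Their r was 0.961 without the 2 mares farthest from the median of B2M and 0.259 to 0.967 with each mare left out, but -0.622 with normexp background correction. None of the 10 pairs passed after adjustment.

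Over both days, with each day centred on its mean and mares permuted within their day (n = 11 changes), CD74 and LAPTM5 had the highest correlation. It was r = 0.805 (exact permutation p = 0.00792, adjusted p = 0.0792 over 10 pairs) and rho = 0.745 (exact p = 0.0162, adjusted p = 0.162). The raw changes of both genes had the same sign in 8 of 11 pairs of samples. Without the 2 changes farthest from the median of CD74, those of mare 3 at day 12 and mare 4 at day 8, r was 0.434, and it lay between 0.686 and 0.888 when each mare number was left out in turn. Both of those mares lay low for both genes: in mare 3 the CD74 change was -0.89 and the LAPTM5 change -0.54, and in mare 4 they were -1.0 and -0.38. No pair passed after adjustment, although all 10 had a positive r of 0.193 to 0.805. The 11 changes are treated as separate, which holds only if mare numbers on the 2 days are not the same animals.

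**Figure D5:**
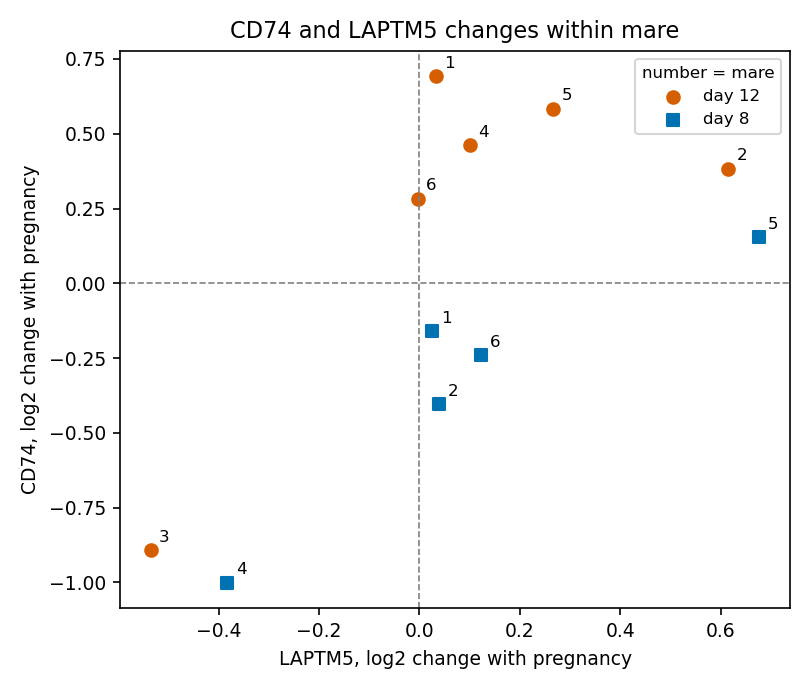
CD74 change against LAPTM5 change with pregnancy (both axes: log2 pregnant minus control within a mare; circles day 12, squares day 8, numbers are mares). Mare 3 at day 12 and mare 4 at day 8 lie at the lower left, and without them r over both days is 0.434.

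As levels over the 22 arrays, with the mean of each group removed, CD74 and LAPTM5 correlated at 0.697, and the other 9 pairs at -0.02 to 0.43. Of 38102 other probes, 0.562% correlated at least as highly with CD74 and 0.265% with LAPTM5. Both arrays of a mare share an animal and a slide, so these values are a description. Of 595 other named genes, those like CD74 included MYH7, a slow muscle myosin (r = 0.738), and HBA2, an alpha globin (0.702). Those most like LAPTM5 were the T cell surface gene CD2 (0.721), the chemokine CCL5 (0.700) and the phospholipase PLA2G4A (0.678). CD68 was most like TLR7, an endosomal receptor for RNA (0.771), the histone H1-5 (0.747) and the glycosyltransferase GCNT1 (0.696). ITGAX was most like the chemokine MIP-2BETA (0.800), the Wnt agonist RSPO1 (0.777) and the chemokine CXCL6 (0.769), which was well above background on 10 arrays only. B2M was most like the Wnt antagonist FRZB (0.694), the Notch target HEY1 (0.659) and LOC100066639 (0.649).

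Around B2M, 4 of 32 genes of a list of MHC class I presentation were measured, B2M itself and the class I heavy chain genes EQMHCC1, MHCB3 and MHCX1. The heavy chains are near copies of each other, so their probes may share transcripts. At day 12 all 4 changes were above 0 with a median of 0.03, beside a median of 0.00 over 609 named genes, and none passed. At day 8 all 4 were above 0 with a median of 0.43, beside 0.01 over the named genes, and none passed. The day 8 change of MHCX1 was 0.44 ± 0.15, higher in 5 of 5 mares (adjusted p = 0.833), and that of MHCB3 was 0.42 ± 0.16, higher in 4 of 5 (adjusted p = 0.833). In both genes mare 2 gave the largest change, 1.30 for MHCX1 against 0.0023 to 0.41 in the other mares, and 1.21 for MHCB3 against -0.23 to 0.49. The change of EQMHCC1 was 0.14 ± 0.78 at day 12 and 1.60 ± 0.85 at day 8 (adjusted p = 0.848), where mare 2 stood at 7.30 and the other mares between -0.19 and 0.49. Without mare 2, an alternative chosen after seeing the data, the mean changes at day 8 were 0.23 for MHCX1, 0.22 for MHCB3, 0.17 for EQMHCC1 and -0.0031 for B2M, so that 3 of 4 were above 0 and the median was 0.20. Between days none of the 4 passed: 3 were higher at day 12 in pregnant samples (median 0.20) and 4 in control samples (median 0.63), the nearest to the threshold being B2M.

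Beside CD74, 1 other of the 34 genes of a class II list was measured, CD40, a receptor through which T cells activate antigen-presenting cells. Its change was 0.21 ± 0.16 at day 12 (adjusted p = 0.644) and -0.05 ± 0.18 at day 8 (adjusted p = 0.989), and it differed by -0.09 ± 0.16 between days in pregnant samples (adjusted p = 0.718). Like CD74 it was lowest in mare 3 at day 12 (-0.34) and in mare 4 at day 8 (-0.84).

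The macrophage and dendritic cell list had 6 measured genes of 37, ITGAX, LAPTM5, CD68, the endotoxin co-receptor CD14 and the Toll-like receptors TLR2 and TLR4. At day 12, 5 of 6 changes were above 0 with a median of 0.12, CD68 among them at 0.00066. At day 8, 1 of 6 was above 0 with a median of -0.02. Of 609 named genes, 305 were above 0 at day 12 and 316 at day 8. None passed on either day, the nearest being CD14 at day 12 (0.51 ± 0.16, higher in 5 of 6 mares, adjusted p = 0.214). Between days the list did not move as one. In pregnant samples CD14 was higher at day 12 than at day 8 by 1.01 ± 0.15 (adjusted p = 0.00183), while TLR4 was lower at -1.39 ± 0.31 (adjusted p = 0.00985) and TLR2 at -0.48 ± 0.14 (adjusted p = 0.0334). In control samples TLR4 was lower at -1.85 ± 0.47 (adjusted p = 0.0387) and the other 5 did not pass. The summed linear level of the 6 genes, in multiples of the 75th percentile, was 13.7 to 16.3 in pregnant and 11.4 to 15.5 in control samples of day 12, and 16.6 to 26.1 in pregnant and 16.0 to 39.4 in control samples of day 8. Such a sum weights each gene by the brightness of its probe and does not speak for the list: in pregnant samples 1 of its 6 genes passed as higher and 2 as lower at day 12.

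Markers of other cell types also differed between days in pregnant samples, a comparison in which 24.3% of all probes passed. PECAM1, the 1 measured endothelial marker of 11, was higher at day 12 by 0.92 ± 0.19 (adjusted p = 0.00589), CD44, the 1 measured gene of a pan-leukocyte list of 13, by 0.76 ± 0.19 (adjusted p = 0.0164), and TAGLN, the 1 measured smooth muscle marker of 9, by 0.84 ± 0.28 (adjusted p = 0.0462). Each of these lists rests on 1 gene, which does not measure the number of cells of a type. None of the 5 measured T and NK lymphocyte markers of 27 passed. The 5 measured neutrophil and mast cell markers of 24 had a summed level of 72.3 to 149 in pregnant samples of day 12 and 163 to 332 in pregnant samples of day 8. This sum is nearly that of ECATH-3 alone, with mean levels of 6.66 and 7.74 in these groups, while every other gene of it had negative means. Of the 5 markers, ECATH-2 (-1.41 ± 0.31, adjusted p = 0.0084) and ECATH-3 (-1.08 ± 0.24, adjusted p = 0.00989) were lower. MMP9 had a difference of 1.66 ± 0.65 the other way (adjusted p = 0.0833) and the remaining genes did not pass. The stromal sum of 3 genes of 13 was 30.5 to 47.8 in pregnant samples of day 12 and 53.6 to 58.6 in pregnant samples of day 8, and the epithelial sum of 2 of 17 was 118 to 196 at day 12 and 201 to 333 at day 8. The epithelial sum is mostly P19, with mean levels of 7.30 and 7.88 in these groups, against 2.84 and 2.99 for ESRP1. Such sums weight each gene by the brightness of its probe and do not speak for a cell type. The stromal gene LUM (adjusted p = 0.0418) and the epithelial gene P19 (adjusted p = 0.0415) passed as lower at day 12, while the other epithelial gene, ESRP1, did not pass (-0.14 ± 0.16, adjusted p = 0.546). In control samples ECATH-2 (-1.16 ± 0.30, adjusted p = 0.043) and ECATH-3 (-1.21 ± 0.26, adjusted p = 0.023) also passed as lower at day 12. The control differences were 0.59 for PECAM1, 0.13 for CD44, 0.22 for TAGLN, -0.67 for LUM and -0.58 for P19, none past the threshold. Control sums of the days overlapped for stroma (32.3 to 42.0 at day 12, 38.8 to 64.7 at day 8) and epithelium (89.0 to 219, 218 to 307). Those of the neutrophil and mast cell list did not (71.2 to 141, 168 to 406). The part of these markers in the CD74 difference was not tested.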

How the data were processed

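Scanner output of 22 arrays of equine endometrium was used. The deposited files hold processed spot intensity values on a linear scale; per the submitters' processing notes the software was Agilent Feature Extraction 10.5.1.1, and per the file headers version 10.7.3.1 for day 8. The authors' deposited value table, used as an alternative, was read as log2: it correlated with log2 intensity at 0.986 to 0.997 per array, with slopes of 0.811 to 0.908 and medians of 7.47 to 8.83. Its log base, scaling and centring are not stated, and it was used without further scaling.

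Intensities were divided by the 75th percentile of the non-control spots of the array and put on the log2 scale. Non-uniform outlier spots numbered 3 to 152 per array and were dropped, and spots of a probe were averaged. Probes well above background on 5 or more arrays (38456 of 43603) were tested with limma 3.58.1 in R 4.3.3 (two-sided), with mare within day as a fixed block. Days were compared in separate fits of the 11 pregnant and the 11 control arrays, without covariates. P-values were Benjamini-Hochberg adjusted over all probes, and the threshold was 0.05. The fits were tested on simulated data. The pairing comes from the labels, and all 11 pregnant arrays correlated best with the control array of their own mare (r = 0.289 to 0.817 over 31038 probes). Both arrays of a mare shared a slide, and slides 1, 2 and 5 held 1 mare only. There animal and slide cannot be told apart in this match. Nothing else in the labels describes replication, so p-values measure the spread between these samples.

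Symbols come from RefSeq genes of assembly TB-T2T by accession: 1394 probes had 1 symbol, 1 had several and 42208 had none. A gene stood by its probe of highest mean level. Besides all member probes, the text names the 3 genes most like each member over the 22 arrays (1 of those is not reported here), all measured genes of the class I, class II and macrophage lists, and at most 3 genes of each other list, those of smallest p. The tissue markers ESRP1, P19, DCN, LUM and SPARC are named outside this rule. The members and lists were chosen with earlier results of these data known. Alternatives were normexp background correction with an offset of 50 (on median signals), quantile normalisation, no filter, a filter on all 22 arrays, a trended robust prior, the value table, the mean over probes, slide as a block or random block, each day alone, no mare block, and each mare left out. Correlations used exact permutation of mares.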

Additional observations from a re-analysis of the deposited data

Results flagged for a closer look

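In each of 30 sets of values (the levels of 5 genes in 4 groups and their changes on 2 days), the highest and lowest value were compared with their nearest neighbour, and 2 values lay far from the others by Dixon's criterion at the 95% level. Chance alone gives about 1 in 20 sets. Both concern CD74 in mare 3 at day 12 and use the same control array, so they are not separate observations. Her control sample had a level of 1.77, against 0.53 to 0.92 in the other 5 control samples. Her change with pregnancy was -0.89, against 0.28 to 0.69 in the other 5 mares.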

How the results depend on the processing

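Of 370 alternative values of the single genes, 317 kept their direction and side of the threshold, 41 turned direction, 7 lost a call and 5 gained one. The cause was not tested. Without the mare pairing as a replicate block, 0 member probes passed at day 12, at day 8 and for the difference of the days, as with it, and the block changed no member's call. In control samples between days 0 members passed, but 2 did with quantile normalisation (B2M 0.96, adjusted p = 0.0218, and ITGAX -0.76, adjusted p = 0.0263), 1 with the filter on all 22 arrays (B2M 0.52, adjusted p = 0.0468) and 1 with a trended robust prior (B2M 0.52, adjusted p = 0.0401). In pregnant samples between days 1 passed, but 0 did with normexp, 0 in the authors' value table, 0 with slide as a random block and 2 with quantile normalisation (B2M 0.94, adjusted p = 0.0168), and 0 to 1 when each mare was left out.

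Normexp moved the median of all probes to 0.34 at day 12, and relative to it the day 12 change of CD74 was -0.27 and that of B2M -0.50. With normexp the day 12 changes were -0.17 for B2M and -0.13 for LAPTM5, and the differences between days in pregnant samples were 0.45 for ITGAX and 0.29 for CD68. With quantile normalisation the changes were -0.047 for CD68 at day 12, 0.0025 for ITGAX and 0.0057 for CD68 at day 8, and the differences of these effects 0.035 for LAPTM5 and -0.053 for CD68. The differences between days were then 0.025 for CD74 and 0.0025 for LAPTM5 in control samples and 0.038 for LAPTM5 in pregnant samples. In the value table the differences of the effects were 0.012 for B2M and 0.023 for LAPTM5, and CD74 differed by 0.077 between days in control samples. The mean over its probes gave ITGAX 0.32 in pregnant and 0.11 in control samples between days. The filter on all 22 arrays left no ITGAX value.

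With each mare left out, the changes at day 12 were -0.070 to 0.18 for B2M, -0.028 to 0.20 for LAPTM5 and -0.075 to 0.051 for CD68. At day 8 they were -0.015 to 0.19 for B2M, -0.35 to 0.13 for ITGAX, -0.049 to 0.22 for LAPTM5 and -0.19 to 0.13 for CD68. The differences of the effects were -0.22 to 0.12 for B2M, -0.14 to 0.11 for LAPTM5 and -0.10 to 0.21 for CD68, and CD74 differed by -0.20 to 0.14 between days in control samples.

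Of 200 alternative correlations 23 changed sign. At day 12 r with normexp was -0.622 for B2M and ITGAX, -0.533 for B2M and CD68 and -0.759 for LAPTM5 and CD68. In the value table it was 0.0451 for CD74 and ITGAX and 0.0972 for CD74 and CD68, and with the mean over probes 0.172 for ITGAX and LAPTM5. Over both days r with normexp was -0.262 for CD74 and ITGAX, -0.220 for CD74 and CD68, -0.394 for B2M and ITGAX, -0.248 for B2M and CD68, -0.557 for ITGAX and LAPTM5 and -0.475 for LAPTM5 and CD68. With each mare left out, day 12 r was -0.0839 to 0.934 for CD74 and B2M, -0.195 to 0.147 for CD74 and ITGAX, -0.166 to 0.943 for CD74 and LAPTM5, and -0.787 to 0.0645 for CD74 and CD68. It was -0.518 to 0.685 for B2M and LAPTM5, -0.0946 to 0.646 for B2M and CD68 and -0.0883 to 0.457 for LAPTM5 and CD68. Over both days it was -0.0559 to 0.440 for CD74 and CD68 and -0.0832 to 0.590 for ITGAX and LAPTM5. ITGAX lay close to background, which limits its precision.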

Other observations

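The interferon gamma axis had 10 measured genes of a list of 22, which holds the cytokine and its partners and targets. At day 12, 8 of 10 changes with pregnancy were above 0 (median 0.12), at day 8, 3 of 10 (median -0.13), and 0 genes passed the threshold on either day by limma, while 1 of 10 on each day had an unadjusted p under 0.05. The difference of the effects was above 0 in 10 of 10 genes (median 0.24), again with none past the threshold. Of 609 named genes, 305 were above 0 at day 12, 316 at day 8 and 312 for the difference. Genes of the list share the same arrays, so their signs are not independent. CXCL10, a chemokine that draws activated T cells, was higher in 6 of 6 mares at day 12 (0.39 ± 0.27, adjusted p = 0.599) and had a change of -0.57 ± 0.30 at day 8 (adjusted p = 0.848). IFNG itself was well above background in 5 of 6 pregnant and 4 of 6 control samples of day 12 and in 1 of 5 pregnant and 1 of 5 control samples of day 8, so no fold between days is given. Between days the list went both ways in pregnant samples, a comparison in which 24.3% of all probes passed. There 2 of 10 genes passed as higher at day 12, IFNG and CXCL10 (0.59 ± 0.20, adjusted p = 0.0475), and 2 as lower, IL12A and IL10. IL12A, a subunit of interleukin 12, was lower at day 12 than at day 8 in pregnant samples (-0.76 ± 0.21, adjusted p = 0.0239). In control samples 7.1% of all probes passed, and of this list 0 genes passed as higher and 2 as lower. IL12A was also lower there (-0.79 ± 0.19, adjusted p = 0.0352). IL10, a cytokine that restrains macrophages, differed by -0.78 ± 0.15 in pregnant samples (adjusted p = 0.00453) and by -1.03 ± 0.17 in control samples (adjusted p = 0.0101).

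Of the lysosome list 2 of 39 genes were measured. GM2A, which encodes the activator protein of ganglioside breakdown, was higher in pregnancy at day 12 by 2.10 ± 0.22 (adjusted p = 0.0027), and SMPD1, which encodes acid sphingomyelinase, did not pass (0.08 ± 0.12, adjusted p = 0.828). Of the red cell and platelet list 2 of 15 were measured. Between days, ITGA2B was lower at day 12 than at day 8 in pregnant samples (-0.84 ± 0.14, adjusted p = 0.00283), a comparison in which 24.3% of all probes passed. Its difference between days in control samples was -0.62 ± 0.18 (adjusted p = 0.057). The change of ITGA2B with pregnancy at day 12 was -0.29 ± 0.08 (adjusted p = 0.158).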
